A study of Mus musculus with 24 samples.

Results

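Zscan4c, Zscan4d, Zscan4f, Zfp352, Tcstv1, Tcstv3 and Ubtfl1 are genes of the 2-cell programme, a burst of transcription at the onset of embryonic genome activity in the mouse. These 7 genes were taken from a list and not from measured values, although the list was chosen with earlier results of these data known. All 7 were found among the 21887 protein-coding genes of the annotation used here. Peaks of N6-methyladenosine (m6A) over each gene body were then read out in 12 libraries by stage, number and position. A gene with at least 1 peak over its body, by 1 bp or more, is called marked.

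The study mapped m6A across the oocyte-to-embryo transition with a low-input form of methylated-RNA immunoprecipitation and sequencing. It covered 6 stages with 2 biological replicates each, and 24 samples in all, of which 12 were antibody-bound RNA and 12 the matching inputs. Each antibody library has 1 list of peaks called over its input, and the inputs themselves were not analysed here. All oocytes and embryos came from C57BL/6N mice, with females of 8 weeks of age given gonadotropins, and no group carried a mutation or a drug treatment as a variable.

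Germinal vesicle (GV) oocytes, fully grown and not yet matured, were taken 48 h after the first hormone, pregnant mare serum gonadotropin, and held with a phosphodiesterase inhibitor. Only those of the surrounded-nucleolus type were kept, in pools of 49. Metaphase II (MII) oocytes were collected 14 h after human chorionic gonadotropin (hCG) in pools of 100 and 110. Zygotes were collected 27 to 28 h after hCG, 2-cell embryos at 39 to 43 h and blastocysts at 92 to 94 h, in pools of 100. The 8-cell embryos, taken at 68 to 70 h, were pooled as 100 in replicate 1 and 51 in replicate 2. Each library is thus a mixture of many oocytes or embryos, and within a pool fewer expressing cells and less RNA or less methylation per cell cannot be told apart. Libraries of GV oocytes, MII oocytes and zygotes, which live largely on stored maternal RNA, are grouped as maternal (6 libraries), and those of 2-cell embryos, 8-cell embryos and blastocysts as embryonic (6 libraries).

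m6A is laid down on nascent messenger RNA by a methyltransferase complex around Mettl3 and Mettl14, often near stop codons and in long exons, and is read by proteins that alter the decay, splicing and translation of the transcript. The 2-cell programme is switched on by the transcription factor Dux together with maternal factors, and many of its transcripts start in or near MERVL retrotransposons. It is shut down within a cell cycle or so, and the same genes flicker on in the rare 2-cell-like cells of embryonic stem cell cultures. Many of the genes are young, lack introns in their coding part or lie in tandem arrays of near-identical copies.

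Peak lists held 6914 to 11959 peaks per library, with median fold enrichments of 4.59 to 6.79 as the authors gave them. The read depth behind the lists is unknown. Of the marker genes used to check the stages, 4 or 5 of 10 oocyte genes were marked in each maternal library and 0 to 2 in each later one. Trophectoderm genes were marked in 4 of 7 in the 8-cell and blastocyst libraries (Cdx2, Eomes, Gata3, Tead4) and in 1 of 7 elsewhere. That 1 was Gata3 in every maternal library and Tead4 in both 2-cell libraries. Of 10 cumulus cell genes, 2 were marked in each GV library, 1 and 2 in the MII libraries and 0 in all later ones. Of 4 sperm genes, Prm2 was marked in all maternal libraries and none was marked in any embryonic one. Since these include the oocyte libraries, Prm2 does not separate stages with sperm from those without. Beside these counts, 12.7% (zygotes) to 20.8% (GV oocytes) of all protein-coding genes were marked in both libraries of a stage.

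Across the series, 5 of the 7 genes were marked in at least 1 library, beside 45.2% of all protein-coding genes. They carried 33 peaks, of which 13 lay in Ubtfl1. Both GV libraries marked 3 genes and so did both 2-cell libraries, but only Zscan4d was in both sets. MII replicate 1 marked 1 gene, while MII replicate 2 and both zygote libraries marked none. The 8-cell libraries marked 2 and 4 genes, and the blastocyst libraries 1 each. Of all 21887 protein-coding genes, 3025 (zygote replicate 1) to 5237 (GV replicate 2) were marked per library. The 2-cell libraries marked 3692 and 4020 of them and the 8-cell libraries 4624 and 4986. The GV lists were the longest, with 10953 and 11959 peaks. With lists of equal length, or with peaks at or above the median score of all lists, the GV libraries marked 0 and 1 of the 7 genes, while both 2-cell libraries marked 2. A fold limit, which dropped peaks with a fold under the library's median, left 1 and 0 genes in the GV libraries and 1 in each 2-cell library.

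Counted over both replicates of a stage, 3 of the 7 genes were marked in GV oocytes (Zscan4d, Tcstv1 and Tcstv3), beside 20.8% of all protein-coding genes. None was marked in both MII libraries or in both zygote libraries, where the background was 16.2% and 12.7%. In 2-cell embryos 3 of 7 were marked in both replicates (Zscan4d, Zfp352 and Ubtfl1), beside 12.9% of all genes. The 8-cell stage had 2 of 7 (Zscan4d and Ubtfl1) beside 17.9%, and the blastocyst 1 of 7 (Ubtfl1) beside 16.9%. With 7 genes these shares are coarse and were not tested against the background, and no stage is called enriched. With lists of equal length, 0 of 7 were marked in both GV libraries, beside 14.4% of all protein-coding genes. In both 2-cell libraries 2 of 7 were left (Zfp352 and Ubtfl1), beside 10.2%. The score limit gave the same counts, beside 14.9% in GV oocytes and 5.62% in 2-cell embryos. The fold limit left 0 of 7 in both GV libraries, beside 10.8%, and 1 of 7 (Ubtfl1) in both 2-cell libraries, beside 5.58%. These shares were not tested either.

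**Figure D1:**
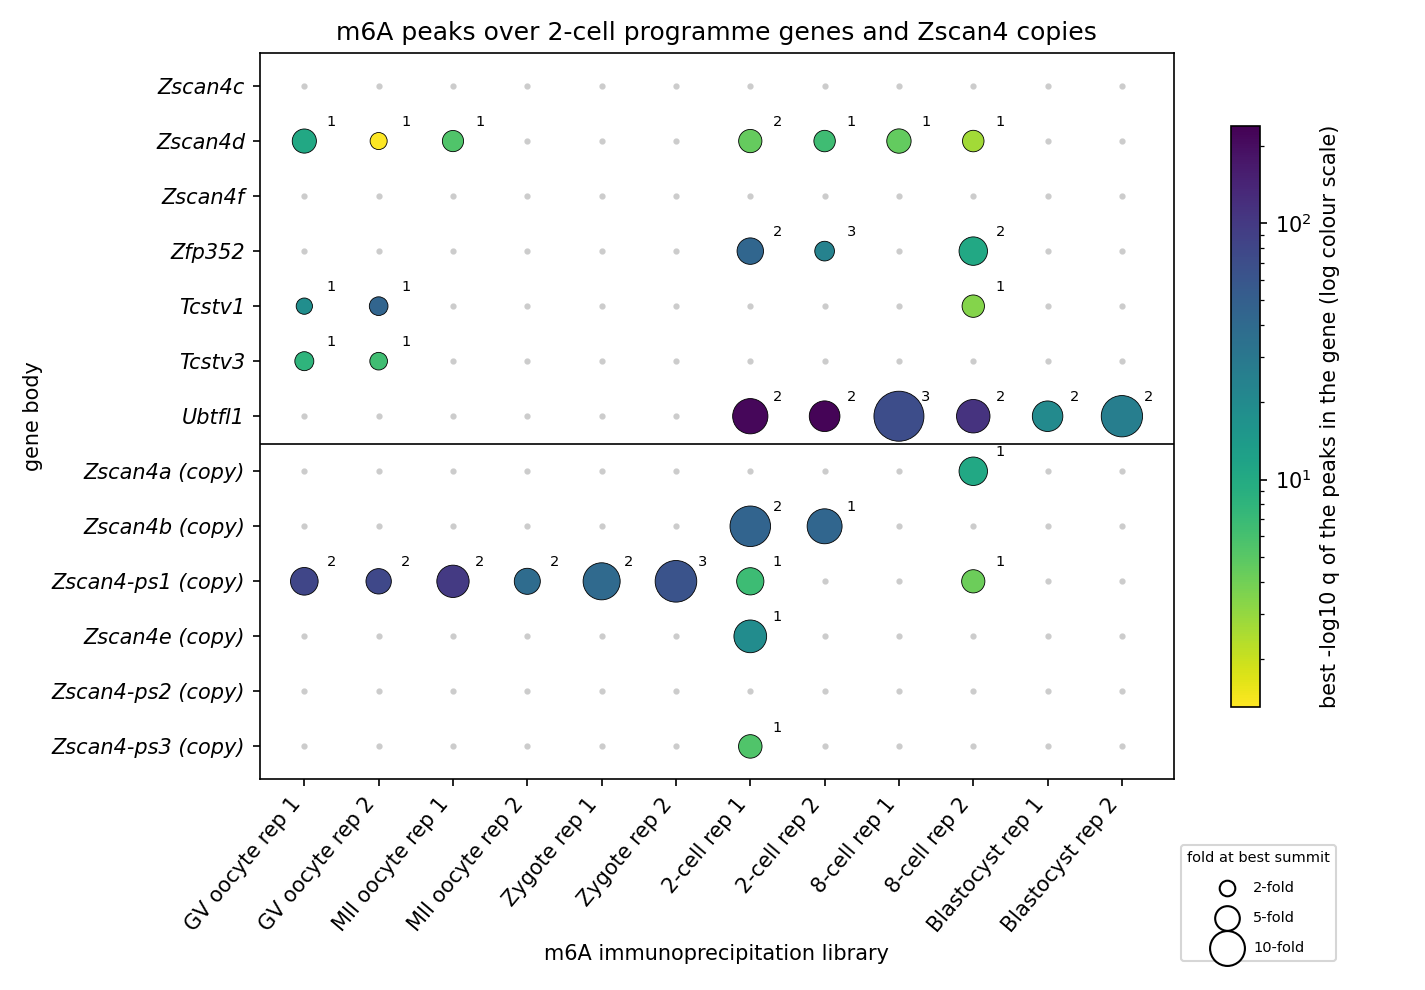
Peaks over the 7 genes (above the line) and the other Zscan4 copies (below it) in the 12 libraries, with 1 column per library. The area of a circle is the authors' fold enrichment at the best summit of the best peak, its colour the highest −log10 q on a log scale, the digit the number of peaks, and a grey dot no peak. Ubtfl1 is filled in all 6 embryonic libraries and empty in all 6 maternal ones, whereas Tcstv1 and Tcstv3 are filled in GV oocytes and empty in both 2-cell libraries.

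Ubtfl1 carried the strongest methylation signal of the 7 genes. It encodes an HMG-box protein related to the ribosomal transcription factor Ubtf and is needed for development around implantation. The gene lies on chromosome 9 (chr9:18404418-18411502, plus strand, 7085 bp), and no other gene of the annotation carries an Ubtfl symbol. Peaks were present in both replicates of the 2-cell, 8-cell and blastocyst stages and in none of the 6 maternal libraries, so the phases did not overlap.

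The largest Ubtfl1 peak covered the second part of the gene, from 4635 to 6027 bp after its start. In 2-cell replicate 1 it spanned chr9:18409064-18410338, 1275 bp wide, with a fold enrichment of 10.2 and a −log10 q of 221. In 2-cell replicate 2 the same region was 1258 bp wide, with a fold of 7.74 and a −log10 q of 230. These peaks ranked 67 of 9161 and 92 of 9552 by −log10 q within their own libraries, that is, in the top percent of each list. In 8-cell embryos the region was 1393 and 1238 bp wide, with folds of 9.33 and 9.22 and ranks of 887 of 8802 and 716 of 9463. In blastocysts it appeared as separate peaks of 886 and 212 bp in replicate 1 and of 815 and 270 bp in replicate 2. The wider peak of each pair had folds of 7.67 and 14.0 and −log10 q values of 20.3 and 26.0. The peak thus lay at the same place at all 3 stages and was split by a gap in blastocysts. Since lists differ in length and depth, the ranks describe each library and are not compared as levels.

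Ubtfl1 also had a short peak close to its start, 340 to 616 bp downstream of it. In 2-cell embryos this peak had folds of 5.78 and 4.83 and −log10 q values of 16.0 and 17.2. In 8-cell embryos the folds were 20.6 and 10.3 and the −log10 q values 71.1 and 38.0. Neither blastocyst library had it. In 8-cell replicate 1 it was the strongest peak of the gene by fold and by −log10 q, while in 8-cell replicate 2 and both 2-cell libraries the downstream region had the higher −log10 q. A peak of 200 bp 6192 to 6391 bp after the start was listed in 8-cell replicate 1 only, with a fold of 4.16 and a −log10 q of 4.72.

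**Figure D2:**
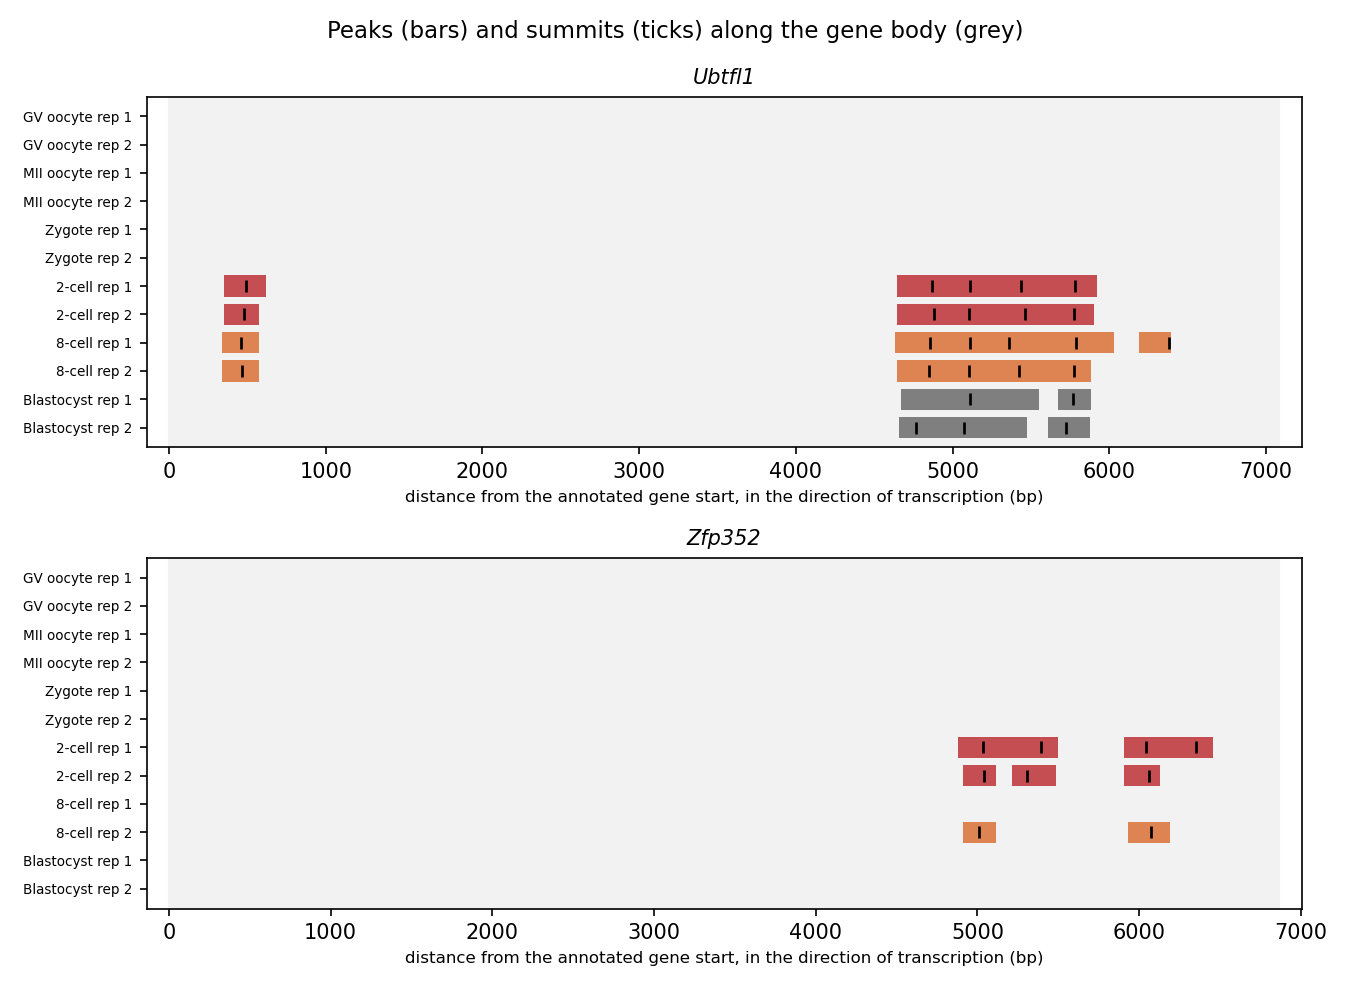
Peaks (bars) and summits (black ticks) along Ubtfl1 and Zfp352, drawn from the annotated start (0 bp) in the direction of transcription, with 1 row per library. The main Ubtfl1 region begins 4635 to 4668 bp after the start in all 6 embryonic libraries, and the peak near the start is missing in both blastocyst rows. Zfp352 is covered in both 2-cell rows and in 8-cell replicate 2.

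Within the main Ubtfl1 region the authors' summits fell at recurrent places. Both 2-cell and both 8-cell libraries had 4 summits each, at 4849 to 4879, 5103 to 5113, 5361 to 5463 and 5777 to 5786 bp after the gene start. The second was the highest by −log10 q in both 2-cell libraries (221 and 230) and in 8-cell replicate 2 (112). In 8-cell replicate 1 the next one downstream, at 5361 bp, was highest, with 68.6 against 63.8. The blastocyst libraries retained summits at 5112 and 5075 bp and at 5768 and 5723 bp, and replicate 2 had a further weak one at 4765 bp with a −log10 q of 2.84. No blastocyst summit fell between 5112 and 5723 bp, where the 2-cell and 8-cell libraries had a summit at 5361 to 5463 bp. That site was still inside the wider blastocyst peaks, which ran from 4668 to 5553 bp in replicate 1 and from 4658 to 5472 bp in replicate 2.

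**Figure D3:**
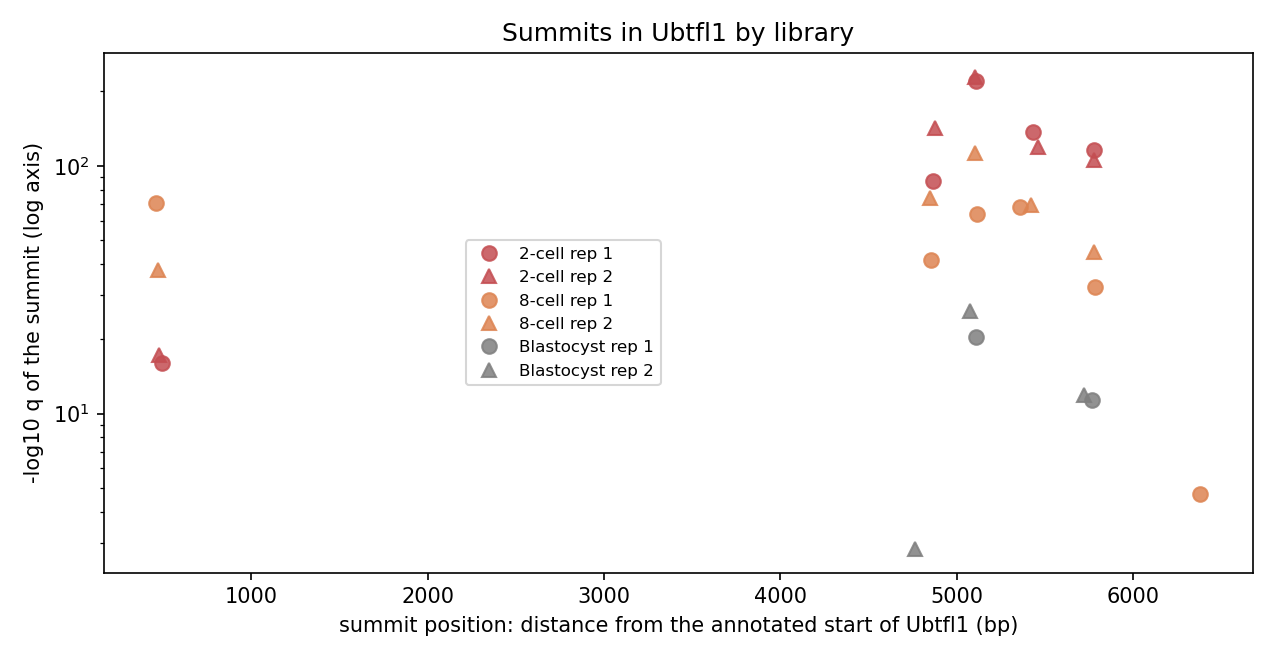
Each point is a summit of a peak in Ubtfl1, with its distance from the gene start in bp on the horizontal axis and its −log10 q on a log vertical axis. Colour gives the stage and shape the replicate (circles 1, triangles 2). The 2-cell and 8-cell points repeat at 4 distances between 4849 and 5786 bp, and the point at 5109 bp (replicate 1) or 5103 bp (replicate 2) is the highest of each 2-cell library.

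The replicates of each embryonic stage covered nearly the same bases of Ubtfl1. The 2-cell replicates shared 1480 bp, a Jaccard index (shared over combined bp) of 0.960. The 8-cell replicates shared 1474 bp, all of those in replicate 2 and 80.5% of those in replicate 1, and the blastocyst replicates 1009 bp (0.859). With 6 of 6 embryonic libraries marked against 0 of 6 maternal ones, Fisher's exact test gave a two-sided p of 0.00216, the smallest that 6 against 6 can give. The adjusted p was 0.00963 (Benjamini-Hochberg over the 2310 protein-coding genes marked in 5 to 7 libraries). The same test called 498 of those genes, 21.6%, for the embryonic phase, so Ubtfl1 is 1 of a large class. The p counts each library as a unit, although each phase is 3 stages of 2 libraries. With the zygotes among the embryos, 4 oocyte libraries were set against 8 embryo libraries, and Ubtfl1 had 6 of 8 against 0 of 4 (Fisher's exact test, p = 0.0606). A gene marked in 6 libraries cannot pass in that grouping. Ubtfl1 was therefore not tested there, and the missing call does not bear on the phase difference.

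Zfp352, a zinc finger gene long used as a marker of the 2-cell stage, was marked in both 2-cell libraries and in 8-cell replicate 2, and in no other library. It lies on chromosome 4 (chr4:90218820-90225687, plus strand, 6868 bp), with no other protein-coding gene within 100000 bp and no copy that shares its symbol. Its 7 peaks all lay between 4879 and 6460 bp after the start, in the last part of the gene body. In 2-cell replicate 1 there were 2 peaks, chr4:90223699-90224319 with a fold of 5.76 and a −log10 q of 43.6, and chr4:90224724-90225280 with 3.96 and 18.9. In 2-cell replicate 2 the first of these regions held 2 narrow peaks with folds of 2.03 and 2.39 and the other held 1 with a fold of 3.19 and a −log10 q of 23.7. The order of the regions by −log10 q thus differed between the 2-cell replicates. All these 2-cell folds were below the median of their libraries, 6.11 and 5.94. When only peaks reaching their library's median fold were kept, Zfp352 was marked in 1 8-cell library and in neither 2-cell library.

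All 702 bp of Zfp352 covered in 2-cell replicate 2 lay inside the 1178 bp covered in replicate 1. The summits nearest the start were at 5035 and 5039 bp in the 2-cell libraries and at 5010 bp in 8-cell replicate 2. Those of the downstream region were at 6045, 6060 and 6072 bp. In the 8-cell library the folds were 3.49 and 6.66 and the −log10 q values 1.97 and 10.4, and 8-cell replicate 1 had no peak, so the 8-cell replicates differed. Set against the other 10 libraries, the 2-cell stage had 2 of 2 marked against 1 of 10 (Fisher's exact test, two-sided p = 0.0455). The adjusted p was 0.480 over the 2250 genes marked in 2 or 3 libraries, and Zfp352 was not called.

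That comparison of the 2-cell stage with the rest has little power. Of its 2250 genes, 0% passed after Benjamini-Hochberg adjustment to Fisher's exact test and 9.47% (213 genes) had an unadjusted p under 0.05. The smallest exact p it can give is 0.0152 and the smallest adjusted p reached was 0.264. Tcstv1 and Tcstv3, with 0 of 2 marked against 3 and 2 of 10, had an exact p of 1 each, and their direction was away from the 2-cell stage. Between phases, Zfp352 was marked in 3 of 6 embryonic against 0 of 6 maternal libraries, which cannot pass the test (exact p = 0.182).

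The Zscan4 family encodes SCAN-domain zinc finger proteins that appear briefly in late 2-cell embryos and in fluctuating stem cells, where they are linked to telomere lengthening and genome stability. Zscan4d is known as the copy chiefly transcribed in 2-cell embryos, and Zscan4c and Zscan4f as copies active in stem cells. Only Zscan4d was marked. Zscan4c (chr7:11005745-11010547, plus strand) and Zscan4f (chr7:11397915-11402318, plus strand) had no peak in any of the 12 libraries. Low methylation, low expression and reads that fit several copies would each leave a gene without a peak, and these cannot be told apart here.

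The DNA just upstream of the 4 protein-coding Zscan4 genes is shown, from RefSeq (GRCm38.p6, the mm10 build), to let the likeness of the copies be seen there; the gene bodies, where the peaks lie, were not compared. Each line is 120 bases, 5′ to 3′ on the gene's strand, and ends 1 to 35 bases before the annotated start. Capitals mark positions where the copies differ, set in the copies that hold the rarer letter, or in all copies where the letters are split evenly.
Zscan4b (chr7:10905051-10905170, minus strand): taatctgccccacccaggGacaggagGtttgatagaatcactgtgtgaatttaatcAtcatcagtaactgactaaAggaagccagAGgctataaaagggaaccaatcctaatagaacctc
Zscan4c (chr7:11005602-11005721, plus strand): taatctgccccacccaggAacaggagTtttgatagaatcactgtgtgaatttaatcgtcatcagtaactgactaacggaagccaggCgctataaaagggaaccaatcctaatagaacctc
Zscan4d (chr7:11166183-11166302, minus strand): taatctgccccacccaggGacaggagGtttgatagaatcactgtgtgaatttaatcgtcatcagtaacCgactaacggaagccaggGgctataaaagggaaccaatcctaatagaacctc
Zscan4f (chr7:11397795-11397914, plus strand): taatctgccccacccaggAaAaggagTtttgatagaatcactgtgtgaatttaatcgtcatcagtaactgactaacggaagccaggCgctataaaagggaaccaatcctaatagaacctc

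Of these 120 positions, 112 were the same in all 4 copies and 8 differed. Over the whole promoter windows, Zscan4c and Zscan4f differed at 2 of 277 aligned bases (99.3% identity), and Zscan4c and Zscan4d at 8 of 289 (97.2%). Zscan4d and Zscan4f were 97.4% identical, and Zscan4b, which is closest to Zscan4d (97.7%), was 95.3% identical to Zscan4c. The letters TATAAA, visible near the right end of each line, occur in all 4 Zscan4 promoters, 31 to 65 bp before the annotated start. Searched on both strands of 250 bases, they are absent from those of Zfp352 and Ubtfl1 and present in 13% of 27025 promoters. Tcstv1 and Tcstv3 were not searched. A match of letters is not a tested site.

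Zscan4d (chr7:11161643-11166148, minus strand, 4506 bp) had 8 peaks in 7 libraries, all of them low in their lists. Both GV libraries, MII replicate 1, both 2-cell and both 8-cell libraries marked it, and neither the zygote nor the blastocyst libraries did. The folds were 4.80 and 2.39 in GV oocytes, 3.70 in MII replicate 1, 4.88 and 3.81 in 8-cell embryos and 3.79 in 2-cell replicate 2. In 2-cell replicate 1 there were 2 peaks with folds of 4.45 and 4.80. The −log10 q ran from 1.31 in GV replicate 2, at the authors' threshold, to 10.4 in GV replicate 1, with 4.44 and 6.52 for the best peaks of the 2-cell libraries. No peak ranked above the lowest 18.6% of its library by −log10 q. This stage pattern did not hold under stricter rules: Zscan4d was marked in 0 libraries with lists of equal length or the score limit, and in 1 when only peaks reaching their library's median fold were kept.

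The Zscan4d peaks clustered in 1 stretch 580 to 1571 bp before the annotated end of the gene, in the 3′ part. The GV and MII summits lay 3658 to 3852 bp after the start, those of the 2-cell libraries at 3221 and 3686 bp (replicate 1) and 3648 bp (replicate 2), and the 8-cell summits at 3332 and 3457 bp. The 2-cell replicates shared 200 bp there, 32.8% of the bases covered in replicate 1 and 50.3% of those in replicate 2. Between phases, 4 of 6 embryonic and 3 of 6 maternal libraries were marked (Fisher's exact test, p = 1, adjusted p = 1).

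The 6 further Zscan4 genes of the annotation were partly marked, and in other patterns. Zscan4b, the fourth protein-coding copy (chr7:10900740-10905050, minus strand), had peaks in the 2-cell libraries and nowhere else. Its best peak had a fold of 13.5 and a −log10 q of 45.7 in replicate 1 and 10.1 and 43.9 in replicate 2, both 159 to 1356 bp before the gene end. This was the highest 2-cell peak inside any Zscan4 gene by fold and by −log10 q in both replicates, above those of Zscan4d. A further Zscan4b peak in replicate 1 had a fold of 5.18 and a −log10 q of 4.74. Zscan4e was marked in 2-cell replicate 1 alone (fold 8.81, −log10 q 19.5), Zscan4-ps3 likewise (4.55 and 5.45), and Zscan4a in 8-cell replicate 2 alone (6.66 and 10.4). Zscan4-ps2 had no peak.

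The pseudogene Zscan4-ps1 (chr7:11065139-11069691) had another stage pattern than the coding copies. It was marked in all 6 maternal libraries with 2 or 3 peaks each, and the −log10 q of its best peak there ran from 38.9 to 98.5. In 2-cell replicate 1 and 8-cell replicate 2 it had 1 peak each, with −log10 q values of 6.74 and 4.20, and it had none in the other 4 embryonic libraries. Of the 9 Zscan4 genes and pseudogenes, 6 had a peak in some library and 3 (Zscan4c, Zscan4f and Zscan4-ps2) had none. How reads that match several copies were placed is not given in the sources used here, so a peak on 1 copy may hold reads of another, and this was not tested.

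Tcstv1 and Tcstv3, short genes of the 2-cell-stage variable group that are linked to telomere length in stem cells, had no peak in either 2-cell library. Copies were sought by symbol alone, and how reads that match several copies were placed is not given in the sources used here. Whether reads of these genes were placed on other genes nearby was not tested. Tcstv1 (chr13:119893387-119894785, 1399 bp) was marked in both GV libraries and in 8-cell replicate 2. Its folds were 2.18 and 2.87 in GV oocytes, with −log10 q values of 18.5 and 44.7, and 4.12 with a −log10 q of 3.42 in the 8-cell library. Tcstv3 (chr13:120316862-120318261, 1400 bp) was marked in the GV libraries alone, with folds of 2.97 and 2.56 and −log10 q values of 8.13 and 6.44. With lists of equal length or the score limit, 1 GV mark of Tcstv1 and none of Tcstv3 was left. The GV folds of both genes were below the median of their libraries, 4.80 and 4.59.

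The GV replicates covered almost the same bases of both genes, 399 shared bp in Tcstv1 (Jaccard index 0.928) and 376 in Tcstv3 (0.989). The Tcstv1 peaks lay 192 to 643 bp from the gene end with the lower coordinate, and the Tcstv3 peaks 179 to 558 bp from the end with the higher coordinate. The strand of both genes and their exons were not used here. In both GV libraries, where these peaks stand, 2 of 10 cumulus cell genes were also marked (Cyp19a1 and Inhba), beside 20.8% of all protein-coding genes. The other 8 were at 0 there. Inhba was marked in both MII libraries as well, where Tcstv1 and Tcstv3 had no peak. The part of cumulus cells in the result was not tested.

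**Figure D4:**
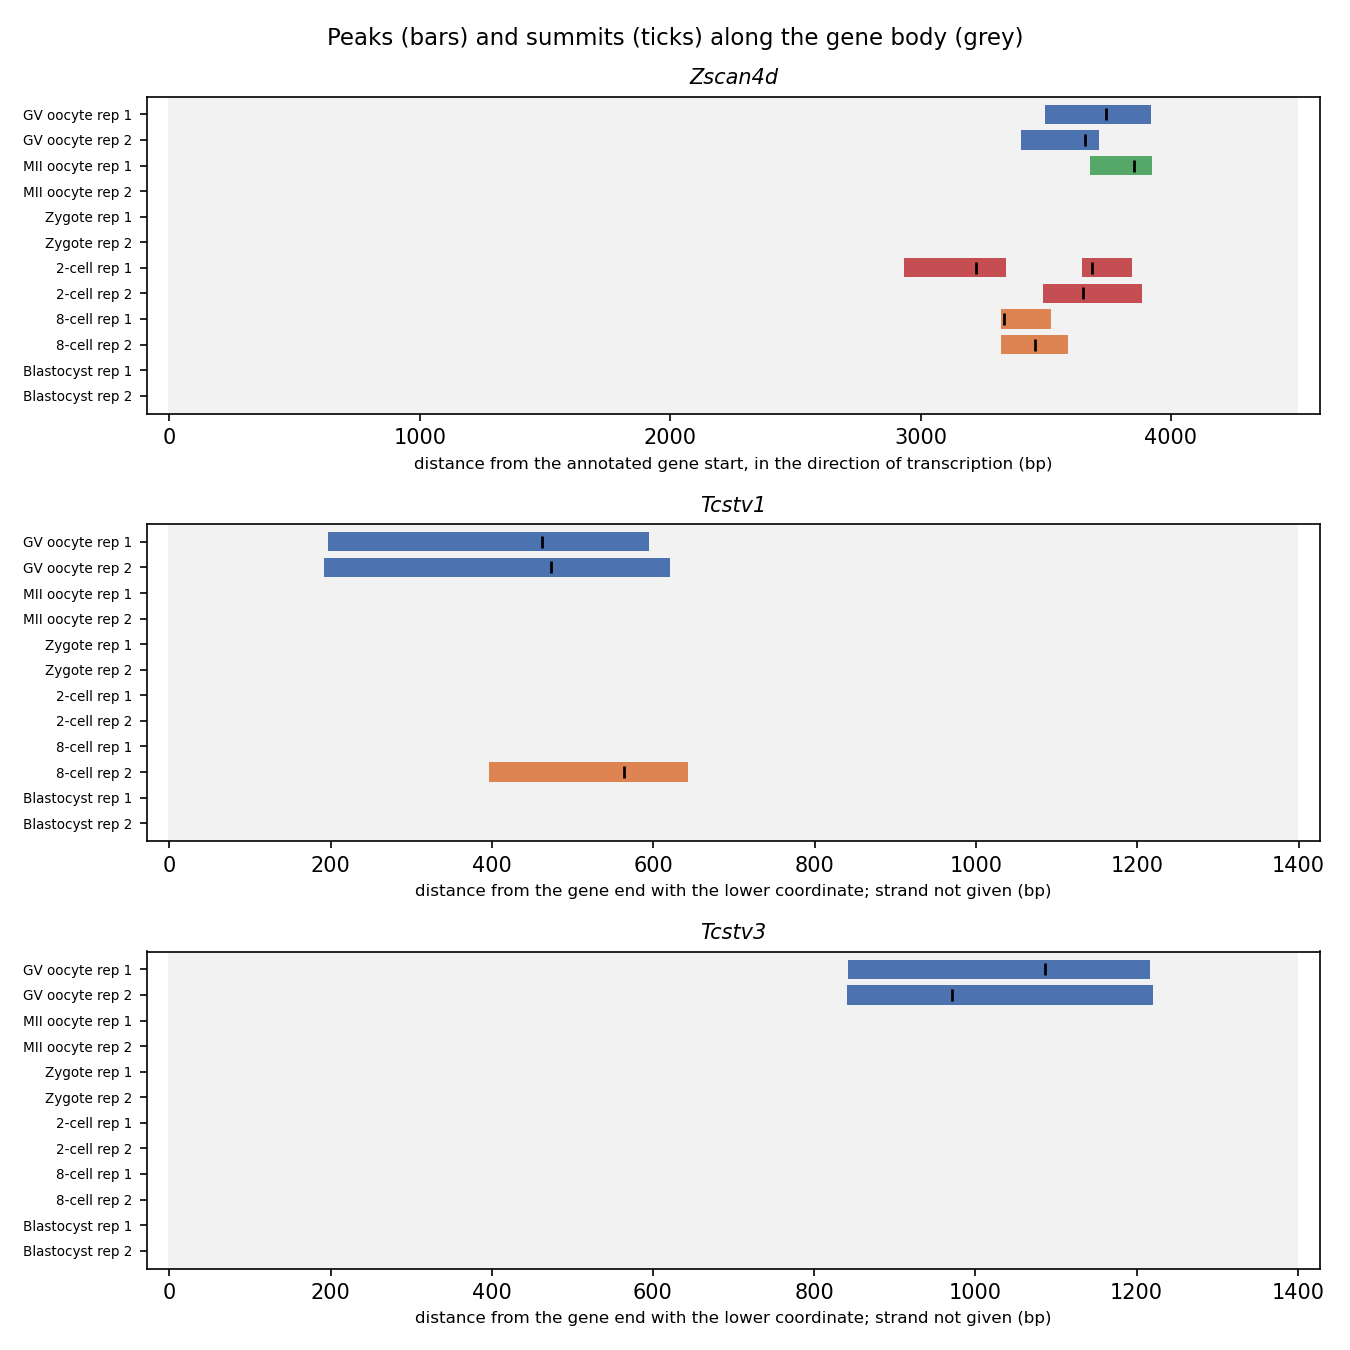
Peaks (bars) and summits (black ticks) along Zscan4d, Tcstv1 and Tcstv3, with 1 row per library. Zscan4d is drawn from its start in the direction of transcription in bp, and the Tcstv genes from the end with the lower coordinate. All Zscan4d bars fall between 2934 and 3925 bp, and the 2-cell rows of Tcstv1 and Tcstv3 are empty.

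Part of the 2-cell peaks near the clustered genes lay outside annotated genes. The Zscan4 copies span 819872 bp of chromosome 7 (chr7:10794241-11614112), with 41 annotated genes of which 4 are protein-coding. This span held 17 and 8 peaks in the 2-cell libraries, 4 to 7 in the maternal libraries, 1 and 3 in 8-cell embryos and 0 in both blastocyst libraries. Of the 2-cell peaks, 7 of 17 and 2 of 8 lay in the 9 Zscan4 copies, which cover 40923 bp of the span, and 8 and 4 lay outside annotated genes. Its strongest 2-cell peak lay in no annotated gene, at chr7:11025536-11025898 in replicate 1 and chr7:11025538-11025798 in replicate 2. There the folds were 43.6 and 25.6 and the −log10 q values 142 and 113, and the nearest Zscan4 copy was Zscan4c, 14989 and 14991 bp away. A further peak outside genes, 6815 and 6776 bp from Zscan4d, had folds of 9.74 and 6.79.

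The interval from Tcstv1 to Tcstv3 covers 424875 bp of chromosome 13 with 10 protein-coding genes. It held 19 and 13 peaks in the 2-cell libraries, 5 and 8 in GV oocytes, 1 or 2 in each MII, zygote and blastocyst library, and 4 and 8 in 8-cell embryos. Of the 2-cell peaks, 13 and 10 lay outside annotated genes, 6 and 3 in other annotated genes and 0 in Tcstv1 or Tcstv3. Among those outside genes, 9 of the 13 in replicate 1 overlapped a peak of replicate 2, and all 10 of the latter overlapped one of replicate 1. In the Zscan4 span this was 3 of 8 and 3 of 4. Of the 10 coding genes of the Tcstv interval, 4 were marked in any 2-cell library, beside 22.4% of all protein-coding genes. In both 2-cell libraries 1 was marked, the gene model B020031M17Rik, beside 12.9%. Gm21761, AF067061 and BC147527 were marked in 1 2-cell library each. Whether any of these genes is a copy of Tcstv1 or Tcstv3 under another symbol was not examined. Around Ubtfl1, 2 of the 6 coding genes within 100000 bp were marked in both 2-cell libraries, beside the same 12.9%.

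**Figure D5:**
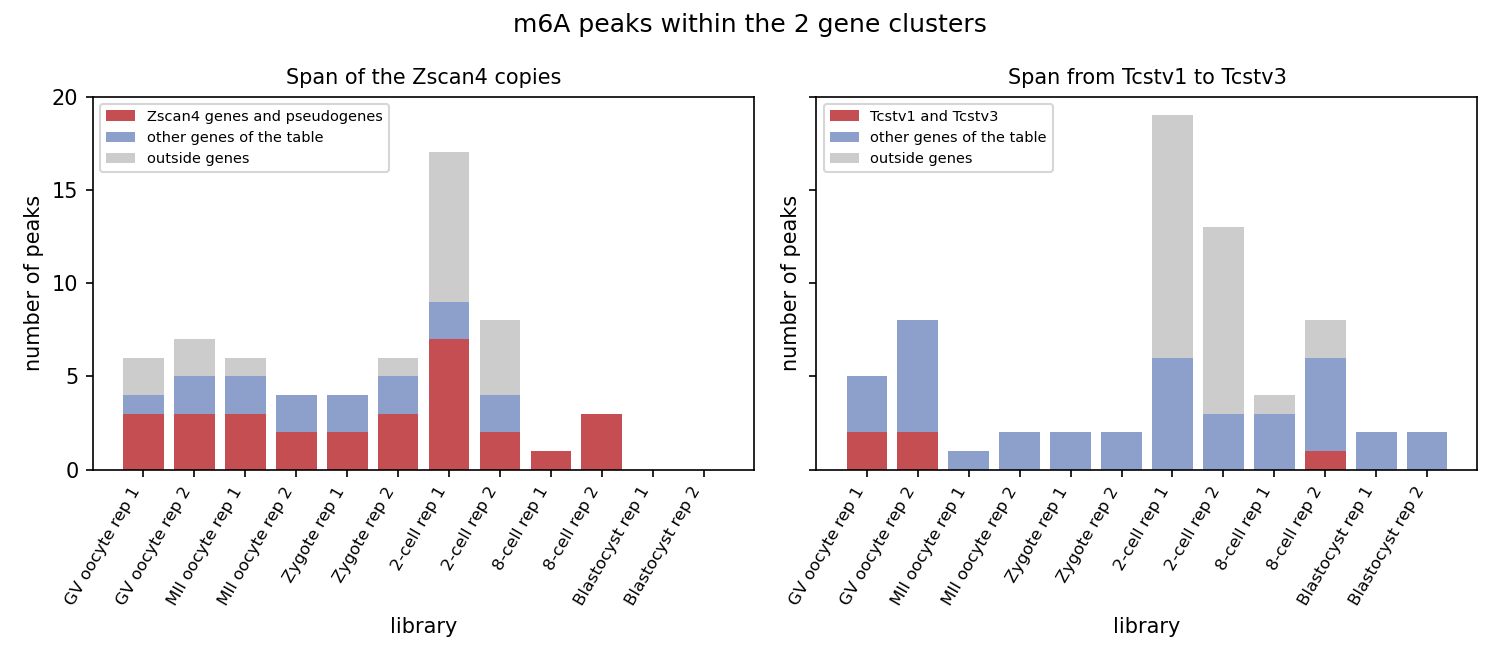
Number of peaks per library in the span of the Zscan4 copies (left) and in the interval from Tcstv1 to Tcstv3 (right), stacked by whether a peak lies in the named genes, in another annotated gene or outside genes. The 2-cell bars are the tallest in both panels, with 17 and 8 peaks on the left and 19 and 13 on the right, and the named genes contribute 0 of the latter.

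Other genes of the 2-cell programme were read out in the same way from a list of 40, of which 35 were found under separate entries. Of these, 33 are protein-coding. Both 2-cell libraries marked 19 of the 35, beside 12.9% of all protein-coding genes, and 28 were marked in at least 1 of them, beside 22.4%. In at least 1 maternal library 5 of the 35 were marked, beside 29.9% of all protein-coding genes. In both 8-cell libraries 15 were marked (beside 17.9%), in both blastocyst libraries 8 (beside 16.9%) and in no library 4. Marked in both 2-cell libraries and no other were 5 of the 35 (Usp17ld, Zscan4b, Spz1, Obox3 and Nelfa), beside 129 of all 21887 protein-coding genes. Usp17lc was marked in both 2-cell libraries and in 1 8-cell library. Usp17ld and Usp17lc encode ubiquitin proteases, Obox3 a homeobox protein, Spz1 a helix-loop-helix transcription factor and Nelfa a subunit of the negative elongation factor. Of the 8 listed genes that could be tested between phases, 6 were called for the embryonic phase, beside 21.6% of all 2310 genes tested. Genes of the list that share a symbol stem, such as the Usp17l, Trim43 and Tdpoz genes, were counted separately. Whether they share reads was not tested, so these counts may not be of independent genes. Trim43a, Trim43c, Tdpoz1, Tdpoz2 and Kdm5b had the stage pattern of Ubtfl1, all embryonic libraries and no maternal one (adjusted p = 0.00963 each, Fisher's exact test), and Obox6 lacked 1 blastocyst library (adjusted p = 0.0306). Zfp750 went the other way, with 6 of 6 maternal libraries and 1 of 6 embryonic (Fisher's exact test, adjusted p = 0.0306), the direction called for 28% of all genes tested. With the zygotes among the embryos, none of these genes was called. Genes with the stage pattern of Ubtfl1 cannot pass in that grouping (6 of 8 against 0 of 4, Fisher's exact test, p = 0.0606) and were not tested. Of the 4269 genes that were tested, 0 passed Fisher's exact test after adjustment, and 12 (embryo) and 232 (oocyte) had an unadjusted p under 0.05.

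The within-library percentile of each gene's best peak, 0 where there was none, was averaged over all 7 genes. This mean was 9.32 and 9.49 in GV oocytes, 0.747 and 0 in MII oocytes, 0 in both zygote libraries, 28.0 and 26.1 in 2-cell embryos, 14.4 and 18.8 in 8-cell embryos and 7.77 and 11.6 in blastocysts. Over all protein-coding genes it was 7.39 to 14.0 in the 12 libraries. Ubtfl1 and Zfp352 made up most of the 2-cell value, Ubtfl1 with percentiles of 99.3 and 99.0 and Zfp352 with 85.4 and 65.0, so the mean describes few genes. Among protein-coding genes with a symbol other than a provisional one, those with the highest correlation with this mean over the 12 libraries were Dop1a (Pearson r = 0.957), Zfp33b (0.942), Tdpoz1 (0.939), Dgke (0.924) and Zfp639 (0.923). In the same order, these genes were marked in 8, 12, 6, 11 and 10 of the 12 libraries. Outside the 2-cell and 8-cell stages they were marked in 4, 8, 2, 7 and 6 libraries, so the correlation does not mean marks limited to those stages. These genes were picked as the highest, libraries of 1 stage are not independent in them, and they are given as a description.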

How the data were processed

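The 12 antibody libraries were analysed from the peak lists that the authors deposited. The submitters' processing notes name MACS2 2.1.2, bedtools 2.28.0, HISAT2 2.1.0, cutadapt 1.8.1, deepTools 3.2.0, FastQC 0.11.8, SAMtools 1.9 and the mm10 build, without settings. The deposited peak names show that peaks were called per library against its own input, without pooling. For each summit the authors gave a score (10 times the −log10 q, rounded down), a fold enrichment (a ratio), a −log10 p-value and a −log10 q-value; these only rank, filter or describe peaks. The lists hold no read numbers, so depth is unknown and no interval was computed.

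The 143579 summit lines, less 13 on the mitochondrial chromosome, were collapsed to 113755 peaks, each with its best −log10 q, and overlapped by 1 bp or more with gene bodies of RefSeq GRCm38.p6 (49943 genes). The table holds no exons, so whether a peak is exonic, intronic or in a UTR was not determined. Python 3.11.15, pandas 2.3.3, numpy 2.4.6 and SciPy 1.17.1 were used.

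Marked libraries were compared per gene by Fisher's exact test, two-sided, over all protein-coding genes whose number of marked libraries can reach p = 0.05 (5 to 7 between phases, 2 or 3 for the 2-cell stage), with Benjamini-Hochberg adjustment at 0.05. The test was checked on made-up marks. Alternatives were other overlap rules, gene bodies extended by 2000 bp, stricter score or fold limits, lists of equal length, each library left out, a replicate block and another grouping of zygotes.

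All 7 genes are named, and so are copies by symbol. Up to 6 other programme genes are those marked in both 2-cell libraries and the fewest others, and the 5 like genes are those with the highest correlation that carry a gene symbol other than a provisional one. The named phase calls of the list of 40, and the genes and peaks named in the clusters, were chosen after their values were seen. The genes and lists were chosen with earlier results of these data known. The exact p-values count each library as a separate unit, although each phase holds 3 stages of 2 libraries, so they are too small where libraries of a stage resemble each other.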

Additional observations from a re-analysis of the deposited data

How the results depend on the processing

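Under 6 other overlap or threshold rules, Ubtfl1 stayed marked in 6 libraries and Zscan4c and Zscan4f in none. With peaks at or above the median score of all lists, the median fold of their own library, or lists of equal length, the number of the 7 genes marked in any library fell from 5 to 3, and that marked in both GV libraries from 3 to 0. The fold limit left 1 of 3 genes marked in both 2-cell libraries, turned the Zfp352 difference (2-cell minus other libraries) from 90 to -10 percentage points and turned the Zscan4d difference (embryonic minus maternal) from 16.7 to -16.7. With 4 oocyte against 8 embryo libraries, Zscan4d had -25 and Ubtfl1 75 percentage points (Fisher's exact test, p = 0.0606 for Ubtfl1). Ubtfl1, marked in 6 libraries, cannot pass in that grouping and was not tested. In it 0 of the 7 genes were called, and 0 of 4269 tested genes in either direction (Fisher's exact test, with unadjusted p under 0.05 in 12 genes for embryos and 232 for oocytes). Genes called for the embryonic phase, 498 in all, numbered 190 with the score limit, 225 with the fold limit and 501 to 815 with 1 library left out (815 without 2-cell replicate 1 and 769 without 2-cell replicate 2); the cause was not tested. The 2-cell test could not be run without either 2-cell library. Without any 1 of the other libraries except 8-cell replicate 2, Zfp352 lost its unadjusted p under 0.05 by falling outside the totals that can reach it. Replicate numbers did not pair the libraries (15 stage pairs, correlation of deviations -0.338 to 0.174, 1 over 0.1). With the replicate block, 498 genes and Ubtfl1 (exact p = 0.005, adjusted p = 0.0223) were still called and Zfp352 had an exact p of 0.0556. Without read depth, a missing peak sets no upper limit on methylation.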
